A study of Mus musculus with 24 samples.

Results

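The triglyceride assembly enzymes are 7 genes that carry glycerol from a sugar intermediate to finished triglyceride: Gpd1, Gpam, Gpat3, Agpat2, Lpin1, Dgat1 and Dgat2. They were taken by name, and every probe that the array annotation maps to them was used, which gave 14 of the 45281 probes and 7 of the 19057 named genes. Of the 14 probes, 12 were bright enough to be tested, and each gene had at least 1 of them. A gene was read through its brightest probe, and its other probes are given beside it.

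Fat cells store energy as triglyceride, which is built stepwise on a glycerol 3-phosphate backbone. Glycerol 3-phosphate is made from a glycolytic intermediate by Gpd1, receives a first fatty acid from a glycerol 3-phosphate acyltransferase (Gpam or Gpat3) and a second from Agpat2, and becomes phosphatidic acid. Lpin1 then removes the phosphate to give diacylglycerol, and Dgat1 or Dgat2 adds the last fatty acid. Loss of Agpat2 in humans and of Lpin1 in mice causes lipodystrophy, a failure to form or keep fat tissue. C/EBPα and PPARγ are transcription factors known for driving the formation of fat cells.

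RNA came from subcutaneous adipose tissue of C57BL/6J mice and was read on 24 Illumina BeadChip arrays in 8 groups of 3. The knockout lines, named Adn-C/EBPα-/- and Adn-PPARγ-/- in the titles, received doxycycline in their food, and each knockout group had control littermates listed under the same diet and time. Adn-C/EBPα-/- mice were fed chow for 3 days, a high fat diet (HFD) for 3 days, or HFD for 1 month, and Adn-PPARγ-/- mice were fed chow for 3 days. Mice were 10 weeks old in the 3 day groups and 14 weeks old in the 1 month groups. By its title the series concerns mature adipocytes, that is, what depends on each factor once the fat cell has formed. The sources used here do not give the driver of the deletion, the alleles, or more on the controls than that they were littermates. Whether the 3 replicates came from 3 mice is not stated either, so the p-values reflect only how far these samples spread, which may be technical.

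Values are given as background-corrected array intensity, a brightness in arbitrary units that is proportional to signal above the array's background. The authors' values had been normalized in 4 separate sets, each of 6 arrays and made of a knockout group and its controls, so levels are compared only within a set and only for one probe at a time. Fold changes are on the log2(corrected intensity + 16) scale, knockout minus control, which understates changes of dim probes. A gene was called when limma's p-value, adjusted by Benjamini-Hochberg over 32981 probes, was under 0.05. The number of arrays, 3 in each group, limits the precision, and between 53.3% and 62.2% of probes were above background on an array.

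The Cebpa probe checked the C/EBPα labels. Control arrays on chow read 438, 485 and 543, and the knockout arrays read 231, 261 and 218. The knockout mean of Cebpa was 48.3% of control on chow (adjusted p = 0.0021), and its log2 change was -2.08 ± 0.14 (SE) at 3 days of HFD and -3.47 ± 0.14 at 1 month, and no knockout array overlapped its controls. Cebpa also fell in the PPARγ knockout, by 1.38 ± 0.14 on the log2 scale (adjusted p = 2.3e-06). The 3 Pparg probes did not move together in the arrays labelled PPARγ knockout: ILMN_1221060 was higher by 1.10, ILMN_1221893 was higher by 1.24 and ILMN_1221594 fell by 1.07. A probe that lies outside the deleted part checks nothing. Where these probes lie was not looked up, so the PPARγ label is taken as given.

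Promoter sequence was at hand for 4 of the 7 genes. RefSeq promoter windows of assembly GRCm38.p6, which run from 250 bases before a gene's start to 50 after it, held 5 windows of these 4 genes among 32851. The bases before the start of Gpat3, Agpat2 and Lpin1 are shown because Lpin1 was called lower in the PPARγ knockout, Gpat3 in the C/EBPα knockout on HFD and Agpat2 in both lines. The Gpam stretch is shown because it holds the single C/EBP match among the member windows. Capitals mark matches to GGGCGG (the GC box), AGGTCA (the hexamer that nuclear receptors such as PPARγ read) or TTGCNNAA (the C/EBP motif) on either strand, and all sequences run 5′ to 3′ on the gene's strand.
Gpat3 (chr5:100845979-100846228, plus strand): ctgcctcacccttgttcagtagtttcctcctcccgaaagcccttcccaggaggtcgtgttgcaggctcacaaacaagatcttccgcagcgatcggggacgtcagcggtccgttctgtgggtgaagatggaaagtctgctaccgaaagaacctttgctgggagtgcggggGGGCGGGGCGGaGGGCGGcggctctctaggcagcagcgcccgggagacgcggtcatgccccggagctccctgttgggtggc
Agpat2 (chr2:26604418-26604667, minus strand): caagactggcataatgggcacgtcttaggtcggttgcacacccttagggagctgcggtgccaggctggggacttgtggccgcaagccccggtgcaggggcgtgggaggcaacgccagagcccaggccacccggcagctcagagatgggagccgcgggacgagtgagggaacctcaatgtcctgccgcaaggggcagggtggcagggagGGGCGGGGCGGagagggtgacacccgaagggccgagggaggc
Lpin1 (chr12:16610967-16611216, minus strand): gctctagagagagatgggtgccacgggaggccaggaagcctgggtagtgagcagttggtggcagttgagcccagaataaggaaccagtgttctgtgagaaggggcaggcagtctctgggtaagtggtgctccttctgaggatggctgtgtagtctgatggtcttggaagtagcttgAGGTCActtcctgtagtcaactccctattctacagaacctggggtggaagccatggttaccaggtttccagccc
Gpam (chr19:55127212-55127241, minus strand): ctcctccactgTTGCAAAAccatcctggac

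The full PPAR/RXR motif, a direct repeat of AGGTCA with 1 base between, was in 0 of the 5 member windows and in 0.0396% of all windows, and a looser repeat of AGGNCA was in 0 of the 5 and in 0.381% of all. The hexamer AGGTCA, of which the full repeat is made, was in 2 of the 5 windows, 74 bases before the start of Lpin1 and 196 bases before the start of the inner Gpam window, against 16.3% of all windows. TTGCNNAA was in 1 of the 5, 8 bases after the start of the outer Gpam window, against 10.8% of all. GGGCGG was in 3 of the 5 (Agpat2, Gpat3 and the inner Gpam window), against 35.7% of all. CCAAT was in 1 of the 5 (37.4% of all) and TATAAA in none (13.6% of all). Such matches describe letters in a window and no site of binding, and the absence of a match says only that these letters are not in the window.

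The 7 enzymes had the most calls in the PPARγ knockout and in the C/EBPα knockout after 1 month of HFD. In the PPARγ knockout on chow, 4 of the 7 genes were called lower (Gpd1, Agpat2, Lpin1 and Dgat1) against a background of 3.61% of 15526 genes, and none was called higher against 3.45%. All 7 were called lower there when the background step was left out, when the offset was 50, or when sets were weighted by their precision. Gpam and Gpat3 were also called there with 1 probe per gene (adjusted p = 0.0387 and 0.0437) and with only the arrays of that comparison (0.0284 and 0.0259), and Gpam with a filter of 6 arrays (0.0462). The PPARγ comparison called 1826 probes in all, and 1180, 953 and 985 without control 1, control 2 or knockout 2. In the C/EBPα knockout after 1 month of HFD, 4 of the 7 were called lower (Gpat3, Agpat2, Dgat1 and Dgat2) against 7.12% of genes, and none higher against 7.71%. After 3 days of HFD, 2 were called lower (Gpat3 and Dgat1) against 1.12% of genes, and none higher against 0.49%. The 392 probes called in that comparison became 227, 237, 245 and 199 without control 2, control 3, knockout 1 or knockout 3. On chow, the C/EBPα knockout gave no call lower (background 0.419%) and none higher (0.399%). There limma's unadjusted p was under 0.05 for 2 of the 7, Gpd1 (higher) and Gpat3 (lower), against 15.3% of all probes. The C/EBPα chow set had the lowest precision weight (0.679, against 1.10 to 1.19 in the other sets), while the main test shared the spread of a probe over all sets. Over all probes, the main test called 272 on chow in the C/EBPα knockout, against 28 with precision weights per set and 1 with only the arrays of the comparison. The shared spread thus gave more calls there, not fewer. The absence of calls for the 7 genes on chow does not by itself show that effects were absent. Limma's interval for the log2 difference ran from 0.06 to 0.77 for Gpd1, but from -0.23 to 0.23 for Dgat2.

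The median log2 change over the 7 genes was -0.74 in the PPARγ knockout, -0.34 at 3 days of HFD, -0.46 at 1 month of HFD and -0.08 on chow in the C/EBPα knockout. The median over all genes tested lay between 0.00 and 0.01 in every comparison. All 7 genes had every PPARγ knockout array below every control array, against 12.8% of all genes. The same held for 6 of 7 at 1 month of HFD (15.3% of all genes), 4 of 7 at 3 days of HFD (9.27%) and 2 of 7 on chow (8.03%), and Gpd1 alone lay wholly above its controls, on chow (9.42% of all genes). No member lay wholly above its controls in the PPARγ knockout (16.1% of all genes), at 3 days of HFD (8.73%) or at 1 month of HFD (17.1%).

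**Figure D1:**
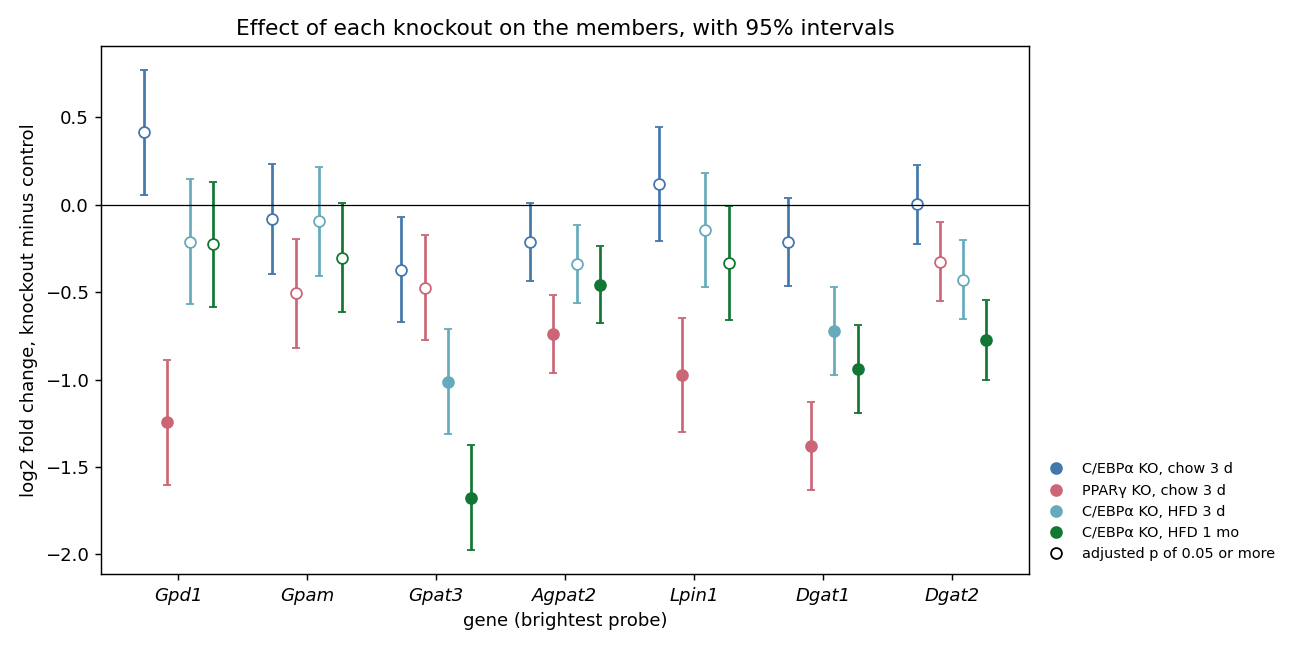
Log2 fold change, knockout minus control, of the brightest probe of each gene in the 4 comparisons, with 95% intervals from limma; filled points have an adjusted p under 0.05. Dgat1 has 3 filled points and lies lowest in the PPARγ knockout at -1.38, Gpat3 lies lowest at 1 month of HFD at -1.68, and no point of the C/EBPα knockout on chow is filled.

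Cell type markers were read in the same arrays. Adipocyte, macrophage and stromal markers had the most calls in the PPARγ knockout and at 1 month of HFD. In the PPARγ knockout, 9 of 12 adipocyte markers were called lower, and the summed level of the 12 was 56670 to 59669 in knockouts against 75843 to 82328 in controls. In the same arrays 4 of 11 macrophage and 3 of 9 stromal markers were called higher, with macrophage sums of 25020 to 30037 against 19933 to 22182 and stromal sums of 41227 to 47643 against 35394 to 40475. At 1 month of HFD, 9 of 12 adipocyte markers were lower (54711 to 59876 against 84671 to 94193) and 10 of 11 macrophage markers were higher (32552 to 43012 against 19626 to 21525). There 6 of 9 stromal markers were higher (42214 to 47201 against 29179 to 34865). Of the endothelial markers, 3 of 8 were lower (5166 to 5843 against 6552 to 7168).

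At 3 days of HFD, 2 of 12 adipocyte markers were lower and no macrophage, stromal or endothelial marker was called. The adipocyte sums there were 45517 to 54963 in knockouts against 55457 to 57852 in controls, and the stromal sums were 31830 to 34589 against 24829 to 30900.0. Endothelial sums there were 4777 to 5289 against 5426 to 5572, and they overlapped in both lines on chow. On chow, the C/EBPα knockout had 1 adipocyte marker lower and none of the macrophage or stromal markers called, and its adipocyte sums overlapped (78447 to 88993 against 85082 to 89752). Its macrophage sums were 30651 to 32232 against 25564 to 29689. Of 5 neutrophil markers, 1 was higher in the PPARγ knockout and 1 lower at 1 month of HFD, and no lymphocyte, epithelial, skeletal muscle or red blood cell marker was called. Neutrophil sums were 246 to 262 in C/EBPα knockouts on chow against 397 to 697 in controls. They were 164 to 324 against 89.8 to 112 in the PPARγ set and 87.2 to 144 against 353 to 370 at 1 month. At 3 days of HFD they overlapped. Sums of 2 red blood cell markers were 25880 to 32012 against 20621 to 25676 on chow in the C/EBPα set. At 1 month they were 20573 to 21669 against 22501 to 26490, and elsewhere they overlapped. The summed level of 6 skeletal muscle markers varied widely within groups and overlapped between them. It was, in the PPARγ set, 3587 to 21721 in knockouts against 8675 to 36425 in controls (median log2 -0.56), and at 3 days of HFD it was 286 to 2987 against 292 to 9541 (median log2 -0.40). At 1 month it was 979 to 5867 against 1303 to 6252, and on chow in the C/EBPα set 3333 to 4925 against 2853 to 8360. No adipocyte marker was at background in all 3 arrays of a group except 1 of 12 in the 1 month knockouts. The part of these shifts in the enzyme results was not tested. In bulk tissue, fewer fat cells and less RNA per fat cell cannot be told apart.

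Gpd1, the cytosolic glycerol 3-phosphate dehydrogenase that supplies the backbone, had the widest gap of the 7 between its effects in the PPARγ and C/EBPα knockouts on chow. In the PPARγ set, the controls read 2611, 2693 and 2588 and the knockouts 1347, 1134 and 872. All 3 knockout arrays lay far below the controls. The mean fell from 2631 ± 55.0 (SD, n = 3) to 1118 ± 238, which is 42.5% of control, and the log2 change was -1.25 ± 0.17 (SE, adjusted p = 9.3e-05).

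In the C/EBPα knockout on chow, Gpd1 lay on the other side of its controls. Controls read 2929, 3179 and 2694, and knockouts read 3678, 4243 and 3808. Every knockout array was above every control, at 133% of the control mean, but the log2 difference of 0.41 ± 0.17 did not pass the test (adjusted p = 0.25, 95% interval 0.06 to 0.77). On HFD the groups overlapped at both times. At 3 days controls read 2249, 2353 and 2910.0 and knockouts 2159.9, 1895 and 2414 (log2 difference -0.21, 95% interval -0.57 to 0.15). At 1 month controls read 2995, 2759 and 3089.8 and knockouts 3285, 1766 and 2747 (log2 difference -0.23, interval -0.58 to 0.13). The second knockout array at 1 month was the lowest of its set for Gpd1, and the first was the highest.

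The first acylation step has its mitochondrial enzyme in Gpam and an enzyme of the endoplasmic reticulum in Gpat3, listed on the array under the older symbol Agpat9. Gpat3 was the member that fell furthest on HFD in the C/EBPα knockout. After 3 days of HFD, Gpat3 controls read 530.3, 539 and 457 and knockouts 234, 263 and 234. The knockout mean of 244 ± 17.1 was 47.9% of control, and the log2 change was -1.01 ± 0.14 (adjusted p = 5.2e-04). At 1 month, controls read 683, 630.1 and 664 and knockouts 237, 188 and 166. The knockout mean of 197 ± 36.0 was 29.9% of the control mean of 659 ± 26.8, a log2 change of -1.68 ± 0.14 (adjusted p = 4.2e-08).

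On chow, neither Gpat3 difference passed the test. C/EBPα controls read 439, 324 and 451 and knockouts 248, 396 and 290.2. The groups overlapped, and the log2 difference of -0.37 ± 0.14 did not pass the test (adjusted p = 0.21). PPARγ controls read 862, 884 and 809 and knockouts 585, 657 and 583. These groups did not overlap, but the log2 difference of -0.48 ± 0.14 had an adjusted p of 0.058. A second Gpat3 probe, ILMN_1241390, had log2 values of -0.27 (C/EBPα, chow), -0.53 (PPARγ), -0.85 (3 days of HFD) and -1.51 (1 month of HFD), and was called in both HFD comparisons. Another, ILMN_1237778, was above background on 2 of 24 arrays and was not tested.

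Gpam read 134 to 262 on the 24 arrays, and no comparison called it. In the PPARγ set, controls read 258, 262 and 251 and knockouts 198, 176 and 156. The groups did not overlap and the knockout mean was 68.8% of control, but the log2 difference of -0.51 ± 0.15 had an adjusted p of 0.0502, just above the threshold. The 1 month controls read 207, 168 and 193 and knockouts 156, 136 and 159, again without overlap (log2 difference -0.30, 95% interval -0.61 to 0.01). On chow, C/EBPα controls read 254, 145 and 225 and knockouts 173, 228 and 175. Gpam controls at 3 days of HFD read 161, 148 and 175 and knockouts 171, 134 and 146. Both groups of these last sets overlapped, with log2 differences of -0.08 and -0.10. The other Gpam probe, ILMN_2429032, was at background on every array.

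Agpat2, which adds the second fatty acid, had all knockout arrays below all controls in every set when read through its brightest probe. Dgat1 did so too. In a single set, this held for 8.03% to 15.3% of all genes. In the PPARγ set, controls read 10839, 9854 and 8529 and knockouts 5792, 5777 and 5853. The knockouts were tightly grouped at 59.6% of control, and the log2 change was -0.74 ± 0.11 (adjusted p = 1.6e-04). The 1 month controls read 15406, 14066 and 15523 and knockouts 12418, 10426 and 10025. The knockout mean was 73.0% of control, with a log2 change of -0.46 ± 0.11 (adjusted p = 0.0054).

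The other Agpat2 differences did not pass the test. The 3 day HFD controls read 11258, 11989 and 12754 and knockouts 9462, 10271 and 8756 (log2 difference -0.34 ± 0.11, adjusted p = 0.16). On chow, C/EBPα controls read 15675, 12386 and 14987 and knockouts 12353, 12277 and 12257. The second control lay close to the knockouts there, and the log2 difference was -0.22 (95% interval -0.44 to 0.01). The second probe, ILMN_1217252, had log2 values of -0.76 (PPARγ), -0.46 (1 month of HFD), -0.25 (3 days of HFD) and -0.33 (C/EBPα, chow). Its groups overlapped in the last 2 of these sets. It was called only in the PPARγ knockout (adjusted p = 0.0050), since its adjusted p was 0.068 at 1 month.

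Lpin1, the phosphatidic acid phosphatase, was called only in the PPARγ knockout. There controls read 1995, 2505 and 2243 and knockouts 1236, 1014 and 1163. The knockout mean was 50.6% of control and the log2 change was -0.97 ± 0.16 (adjusted p = 5.0e-04). On chow, C/EBPα controls read 3245, 2373 and 2950.3 and knockouts 2954, 3562 and 2778. The 3 day HFD controls read 1785, 1955 and 2535 and knockouts 1783, 2237 and 1632. In both sets the groups overlapped, with log2 differences of 0.12 (95% interval -0.21 to 0.45) and -0.15 (interval -0.47 to 0.18).

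Lpin1 controls at 1 month of HFD read 2872, 3050.1 and 2982 and knockouts 2674, 1899 and 2554. The groups did not overlap, but the log2 difference of -0.33 ± 0.16 did not pass the test (adjusted p = 0.21). The second bright Lpin1 probe, ILMN_2507725, had log2 values of -0.93 in the PPARγ knockout and of 0.02, -0.30 and -0.41 in the C/EBPα knockout on chow, at 3 days and at 1 month of HFD, and was likewise called only in the PPARγ knockout (adjusted p = 0.0011). The dim probes ILMN_2738580 and ILMN_2592546 read at most 28.1 and 42.2 on any array, were above background on 18 and 6 arrays, and were called in no comparison.

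**Figure D2:**
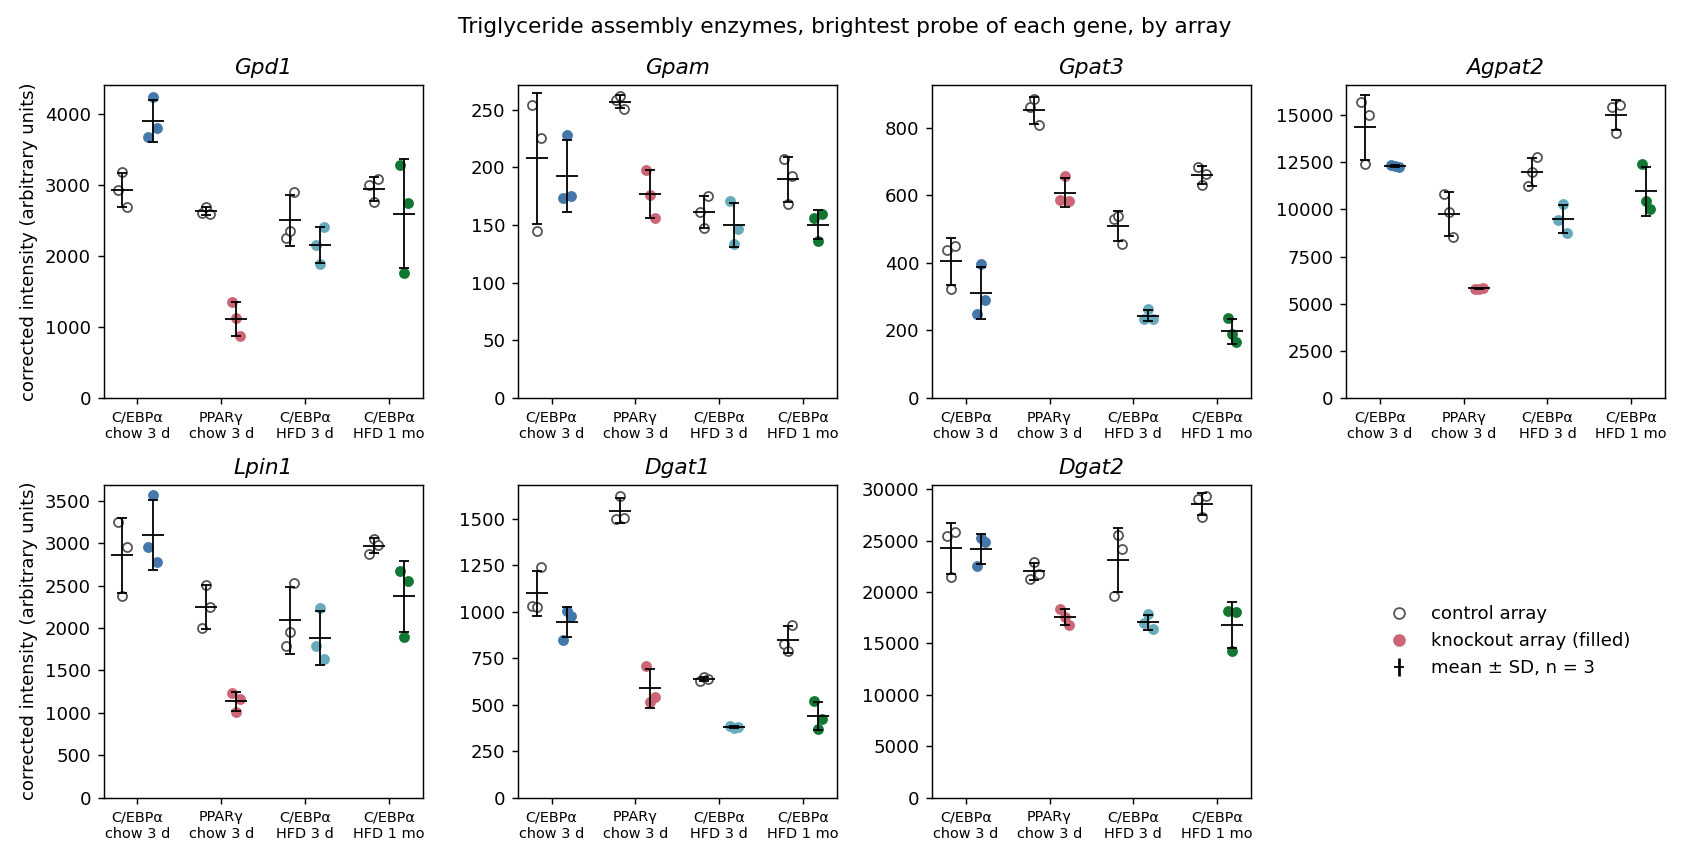
Background-corrected intensity, in arbitrary units from 0, of the brightest probe of each gene on each of the 24 arrays; open circles are controls, filled circles knockouts, and bars the mean ± SD (n = 3). Levels may be read between the control and knockout of a set only. Gpd1 lies above its controls in the C/EBPα knockout on chow and below them in the PPARγ knockout, and Dgat2 shows its widest gap at 1 month of HFD.

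The last step is carried out by 2 enzymes of unrelated sequence. Dgat1 was called lower in 3 of the 4 comparisons. In the PPARγ set, controls read 1500.1, 1619 and 1505 and knockouts 706, 517 and 539. The knockout mean was 38.1% of control, and the log2 change of -1.38 ± 0.12 (adjusted p = 3.0e-07) was the 14th lowest of 15526 genes. Dgat1 controls at 3 days of HFD read 626, 649.7 and 638 and knockouts 386, 376 and 378. Both groups were tightly spread, at 59.6% of control, and the log2 change was -0.72 ± 0.12 (adjusted p = 0.0020).

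Dgat1 controls at 1 month of HFD read 827, 791 and 929 and knockouts 518, 371 and 424. The knockout mean was 51.6% of control and the log2 change was -0.94 ± 0.12 (adjusted p = 1.1e-05). On chow, C/EBPα controls read 1031, 1026 and 1237 and knockouts 850.2, 1004 and 978. The groups did not overlap, but the log2 difference of -0.21 ± 0.12 did not pass the test (adjusted p = 0.42, 95% interval -0.46 to 0.04).

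Dgat2 was called at 1 month of HFD. There controls read 29089.8, 27308 and 29312 and knockouts 18127, 14222 and 18018. The knockout mean was 58.8% of control and the log2 change was -0.77 ± 0.11 (adjusted p = 3.2e-05). The 3 day HFD controls read 19605, 25519 and 24209 and knockouts 16985, 17834 and 16374. In the PPARγ set, controls read 21293, 22956 and 21781 and knockouts 18314, 17566 and 16764. Neither of these sets overlapped between groups, but the log2 differences of -0.43 ± 0.11 (adjusted p = 0.057) and -0.33 ± 0.11 (adjusted p = 0.089) did not pass the test. The 3 day HFD difference was called under 4 other settings, namely no background correction (adjusted p = 0.0194), an offset of 50 (0.0224), 1 probe per gene (0.0359) and precision weights (0.0358), and also without control 1 of that set (0.0188). On chow, C/EBPα controls read 25476, 21418 and 25875 and knockouts 22544, 25220.2 and 24884. The groups overlapped and the knockout mean was 99.8% of control, with a log2 difference of 0.00 and a 95% interval of -0.23 to 0.23.

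The knockouts were then set against each other by testing the difference of their effects, each against its own controls. On chow for 3 days, the PPARγ effect was lower than the C/EBPα effect for Gpd1 by a log2 of -1.66 ± 0.24 (adjusted p = 6.5e-04), for Dgat1 by -1.17 ± 0.17 (adjusted p = 6.5e-04) and for Lpin1 by -1.09 ± 0.22 (adjusted p = 0.013). These 3 of 7 genes were called against 1.19% of all genes lower and 0.824% higher. The second bright Lpin1 probe gave -0.94 (adjusted p = 0.039). The differences of Agpat2 (-0.52, adjusted p = 0.083), Gpam (-0.43), Dgat2 (-0.33) and Gpat3 (-0.10, 95% interval -0.53 to 0.32) did not pass the test. Agpat2 passed it with no background correction (adjusted p = 0.0342), with an offset of 50 (0.0362) and without PPARγ control 3 (0.0482). The 572 probes called in this difference became 243, 264 and 375 without PPARγ control 2, knockout 2 or knockout 3.

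The effects on Cebpa itself on chow, 37.5% of control in the PPARγ knockout against 48.3% in the C/EBPα knockout, were set side by side too, and that difference in effect did not pass the test (-0.38 ± 0.20, adjusted p = 0.36). At 1 month of HFD Cebpa was at 7.39% of control. The PPARγ effect on chow was therefore also set against the C/EBPα effect at 1 month of HFD, though diet, time and age differ between them and cannot be told apart from the factor. Gpd1 was lower in the PPARγ comparison by -1.02 ± 0.24 (adjusted p = 0.021), against 1.3% of genes called lower. Gpat3 was higher by 1.20 ± 0.20 (adjusted p = 0.0012), against 2.31% of genes called higher. The second Gpat3 probe gave 0.98 with an adjusted p of 0.075. The Gpd1 call was lost when any 1 of 5 arrays was left out (PPARγ control 2, PPARγ knockout 3, 1 month control 2, 1 month knockout 1 or 1 month knockout 3), with adjusted p-values of up to 0.070. Among the other 5 genes, the differences ran from -0.64 (Lpin1) to 0.45 (Dgat2) and none was called.

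Diet and time within the C/EBPα knockout gave no call for the enzymes. The effect at 3 days of HFD minus the effect on chow was negative for all 7 genes, from -0.64 (Gpat3) to -0.01 (Gpam). Of all genes tested, 50.5% were negative, and the sign of Gpam turned with some arrays left out. In this difference limma called 0% of all 15526 genes in either direction. It called 0 probes with all arrays, and from 0 to 27 with 1 array left out, the most without 3 day HFD knockout 2. Its unadjusted p was under 0.05 for 4 of the 7 (Gpd1 -0.62, Gpat3 -0.64, Dgat1 -0.51 and Dgat2 -0.43), against 10.2% of all probes. The effect at 1 month minus the effect at 3 days of HFD was also negative for all 7, from -0.66 (Gpat3) to -0.01 (Gpd1). Of all genes tested, 49.3% were negative, and the sign of Gpd1 turned with some arrays left out. None of the 7 was called in this difference (0.779% of genes lower, 0.47% higher). The 318 probes called there became 159 without 3 day HFD knockout 2, and 173, 210, 211 and 200 without 3 day controls 1 or 2, 1 month control 1 or 1 month knockout 2. There the unadjusted p was under 0.05 for Gpat3 and Dgat2 (-0.35), against 9.88% of all probes. The 3 C/EBPα comparisons in these differences share arrays: the 3 day HFD arrays enter both. Cebpa fell further at 1 month than at 3 days (-1.39 ± 0.20, adjusted p = 7.4e-04). Its effect at 3 days of HFD minus its effect on chow was -1.08 ± 0.20, which did not pass the test (adjusted p = 0.073). The Cebpa knockout mean was 21.3% of control at 3 days of HFD and 48.3% on chow. The depth of Cebpa loss thus differed along with diet and time, and its part in the enzyme differences was not tested.

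Set against adipocyte markers in the same arrays, the members lay on both sides. In the PPARγ knockout the median of the 12 adipocyte markers was -0.63, and Dgat1 lay 0.75 and Gpd1 0.61 below it on the log2 scale while Dgat2 lay 0.31 above. At 3 days of HFD the marker median was -0.27, and Gpat3 lay 0.75 and Dgat1 0.46 below it. At 1 month the marker median was -0.72. Gpat3 lay 0.96 below it, Dgat1 0.22 below it, and Gpd1, Gpam, Lpin1 and Agpat2 lay 0.26 to 0.49 above it. These gaps are descriptions with no test.

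The mean of the 7 genes on each array, on the log2 scale and centred on its own set, showed the same arrays apart. In the PPARγ set controls lay at 0.39, 0.46 and 0.35 and knockouts at -0.28, -0.43 and -0.50. At 1 month of HFD controls lay at 0.36, 0.26 and 0.38 and knockouts at -0.13, -0.55 and -0.33, with the second knockout lowest. At 3 days of HFD controls lay at 0.12, 0.21 and 0.30 and knockouts at -0.20, -0.18 and -0.25. On chow the C/EBPα groups overlapped, with the second control lowest at -0.17.

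**Figure D3:**
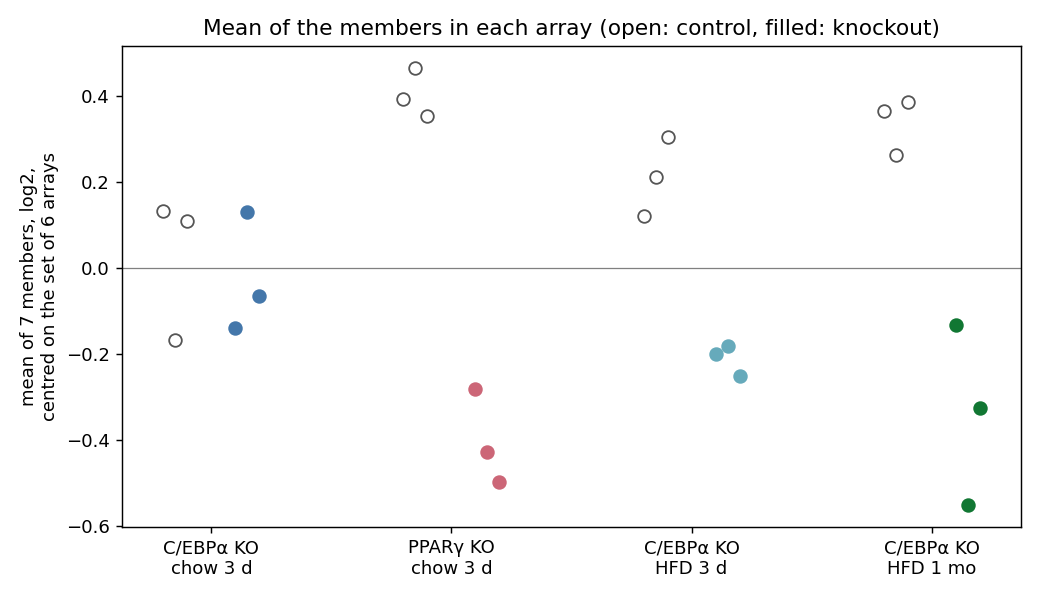
Mean log2 value of the brightest probes of the 7 genes on each array, centred on the mean of its set of 6 arrays; open circles are controls and filled circles knockouts. The 3 knockouts lie below the 3 controls in every set except the C/EBPα knockout on chow, where knockout 2 at 0.13 lies beside control 1.

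Across the 24 arrays, set-centred values of the members ran together to different degrees. Pearson's r between pairs was highest for Agpat2 with Dgat1 (0.92) and for Gpat3 with Dgat2 (0.91), and lowest for Gpd1 with Gpat3 (0.32). Dgat1 had the highest r with the mean of the 7 (0.97) and Gpd1 the lowest (0.77). That mean includes the member itself, which raises a member's r, so these values do not compare with those of genes outside the list. Outside the list, the 5 genes most like that mean were Pcx (r = 0.957), Slc25a44 (0.956), Pex11a (0.952), Tmem120b (0.939) and 1700037H04Rik (0.938). These r-values are descriptions over arrays that share sets and knockout status. Pcx, pyruvate carboxylase, feeds glyceroneogenesis and fatty acid synthesis, and its log2 values were -1.10 in the PPARγ knockout and -0.05, -0.44 and -0.76 in the C/EBPα knockout on chow, at 3 days and at 1 month of HFD.

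The gene lists below share a background of 3.61% of all genes called lower and 3.45% higher in the PPARγ knockout. For the C/EBPα knockout these shares were 0.419% and 0.399% on chow, 1.12% and 0.49% at 3 days of HFD, and 7.12% and 7.71% at 1 month. Of 9 tested genes that supply glycerol 3-phosphate, 6 were called lower and none higher in the PPARγ knockout (median log2 -0.65). The glucose transporter Slc2a4 fell by 1.42 ± 0.15, Pcx by 1.10 ± 0.12 and the glycerol channel Aqp7 by 0.65 ± 0.10 on the log2 scale. Pck1, the rate-limiting enzyme of glyceroneogenesis, had a log2 difference of -0.68 ± 0.24 that did not pass the test (adjusted p = 0.10). In the C/EBPα knockout none of the 9 was called on chow or at 3 days of HFD (medians -0.04 and -0.23), and 3 were lower at 1 month (median -0.40), among them Pcx (-0.76) and Slc2a4 (-0.67). On chow, the PPARγ effect was lower than the C/EBPα effect for Slc2a4 (-1.43), Pcx (-1.05) and Aqp7 (-0.71), all called. Aqp7 and Pck1 also stand in the adipocyte marker list.

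Other genes of the same enzyme families were read next, 14 tested genes of the glycerol 3-phosphate acyltransferase, AGPAT, lipin, MGAT and DGAT families. In the PPARγ knockout 1 was lower (7.14%, against 3.61% of all genes) and 1 higher (against 3.45% of all genes), with a median of -0.01. Among these, Gpat4, the fellow enzyme of Gpat3, had log2 differences of -0.33 to -0.12 in the 4 comparisons with no call, and Lpin2, a relative of Lpin1, had 0.03 to 0.11 with no call. These last genes were named after their values were seen. No gene of this group was called in the C/EBPα knockout on chow (median 0.00). At 3 days of HFD 1 was lower (7.14%, against 1.12% of all genes, median -0.11). At 1 month 3 were lower (21.4%, against 7.12% of all genes, median -0.20).

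Mogat2, a monoacylglycerol acyltransferase that makes diacylglycerol by another route, was higher in the PPARγ knockout by 0.74 ± 0.19 and lower at 1 month of HFD in the C/EBPα knockout by a log2 of -1.71 ± 0.19. The difference of these effects was 2.46 ± 0.27 (adjusted p = 6.4e-06). In it, diet, time and age differ along with the factor and cannot be told apart from it. With both lines on chow for 3 days, the PPARγ effect was higher than the C/EBPα effect by 1.35 ± 0.27 (adjusted p = 0.013). Lpgat1, a lysophospholipid acyltransferase, fell by 0.80 ± 0.14 after 3 days of HFD and fell by 2.01 ± 0.14 after 1 month, and the effect at 1 month was lower than at 3 days by -1.21 ± 0.20 (adjusted p = 0.0025). Lpcat3 fell in the PPARγ knockout (-0.43) and at 1 month of HFD (-0.74).

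Fatty acid supply was tested in 14 genes. In the PPARγ knockout 4 were lower, among them the fatty acid synthase Fasn (-1.21 ± 0.24) and the fatty acid transporter Slc27a1 (-0.81 ± 0.17), and 1 was higher (median -0.23). After 1 month of HFD 5 were lower, among them the desaturase Scd2 (-1.55 ± 0.28) and Slc27a1 (-0.98 ± 0.17), and none higher (median -0.27). After 3 days of HFD only the fatty acid binding protein Fabp5 was lower (-1.14 ± 0.20, median of the list -0.27), and on chow the C/EBPα knockout had no call (median -0.03).

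The branch that turns phosphatidic acid and diacylglycerol into phospholipid had 17 genes tested. In the PPARγ knockout 3 were lower and 1 higher (median -0.15), and at 1 month of HFD 4 were lower and 1 higher (median -0.08). Pemt, which makes phosphatidylcholine from phosphatidylethanolamine, fell in both (-0.65 and -0.92), as did Pcyt2 (-0.50 and -0.56), while the lipid phosphatase Plpp3 rose in both (0.47 and 0.41). After 3 days of HFD 1 of 17 was lower, and on chow the C/EBPα knockout had no call (medians -0.12 and -0.08).

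Droplet genes and the enzymes that break triglyceride down were read beside the assembly enzymes. Of 11 droplet genes, 3 were lower in the PPARγ knockout (Cidec -0.85, Plin1 -0.61 and Fitm2 -0.54, median -0.24). At 1 month of HFD 6 were lower and 1 higher (median -0.40). The seipin gene Bscl2 fell by 1.14 ± 0.09 there and by 0.43 ± 0.09 at 3 days of HFD, the only call of the list at that time (median -0.20). The higher gene was Cidea (1.04 ± 0.17). On chow none was called in the C/EBPα knockout (median -0.08).

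Of 8 breakdown genes, 3 were lower in the PPARγ knockout (Lipe -1.26 ± 0.11, Pnpla3 -1.17 and Pnpla2 -0.52, median -0.29). Pnpla2 and Lipe start the release of fatty acids from triglyceride and diacylglycerol. Lipe, Plin1, Cidec and Fabp4 also stand in the adipocyte marker list. After 1 month of HFD 6 of 8 were lower, among them Mgll (-0.90 ± 0.10), Pnpla3 (-1.78) and Abhd5 (-0.89), with a median of -0.63. At 3 days 2 of 8 were lower, Abhd5 (-0.71) and Pnpla3 (-0.92), with a median of -0.03. On chow the C/EBPα knockout had 1 call, Pnpla3 (-0.88 ± 0.21, median of the list -0.12).

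Regulators of fat synthesis, 10 genes that include Cebpa and Pparg themselves, had 5 lower and 1 higher in the PPARγ knockout (median -0.41). The higher gene was Pparg, the target itself, read by ILMN_1221060 (1.10), a probe whose position was not looked up. Srebf1, a transcription factor of fatty acid synthesis genes, fell by 1.18 ± 0.15 and Insig1, which holds SREBP proteins in the endoplasmic reticulum, by 1.43 ± 0.21. After 1 month of HFD 7 of 10 were lower (median -0.52), among them the liver X receptor gene Nr1h3 (-0.65 ± 0.10) and Mlxipl, which encodes the glucose-responsive factor ChREBP (-0.93 ± 0.20). These 7 include Cebpa, the gene targeted in those mice. On chow and at 3 days of HFD, Cebpa was the only one called in the C/EBPα knockout by its brightest probe (medians of the list -0.17 and -0.25). The Pparg probe ILMN_1221893, which is not the brightest, fell by 1.18 ± 0.15 at 3 days of HFD (adjusted p = 1.1e-04), where the brightest, ILMN_1221060, had -0.43 (adjusted p = 0.073) and ILMN_1221594 had -0.34. All 3 Pparg probes were called lower at 1 month of HFD (-1.58, -0.54 and -0.60, in the order just given), and none was called on chow. Srebf1 had a lower PPARγ effect than C/EBPα effect on chow (-0.99 ± 0.21, adjusted p = 0.015), as did Insig1 (-1.38 ± 0.30).

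**Figure D4:**
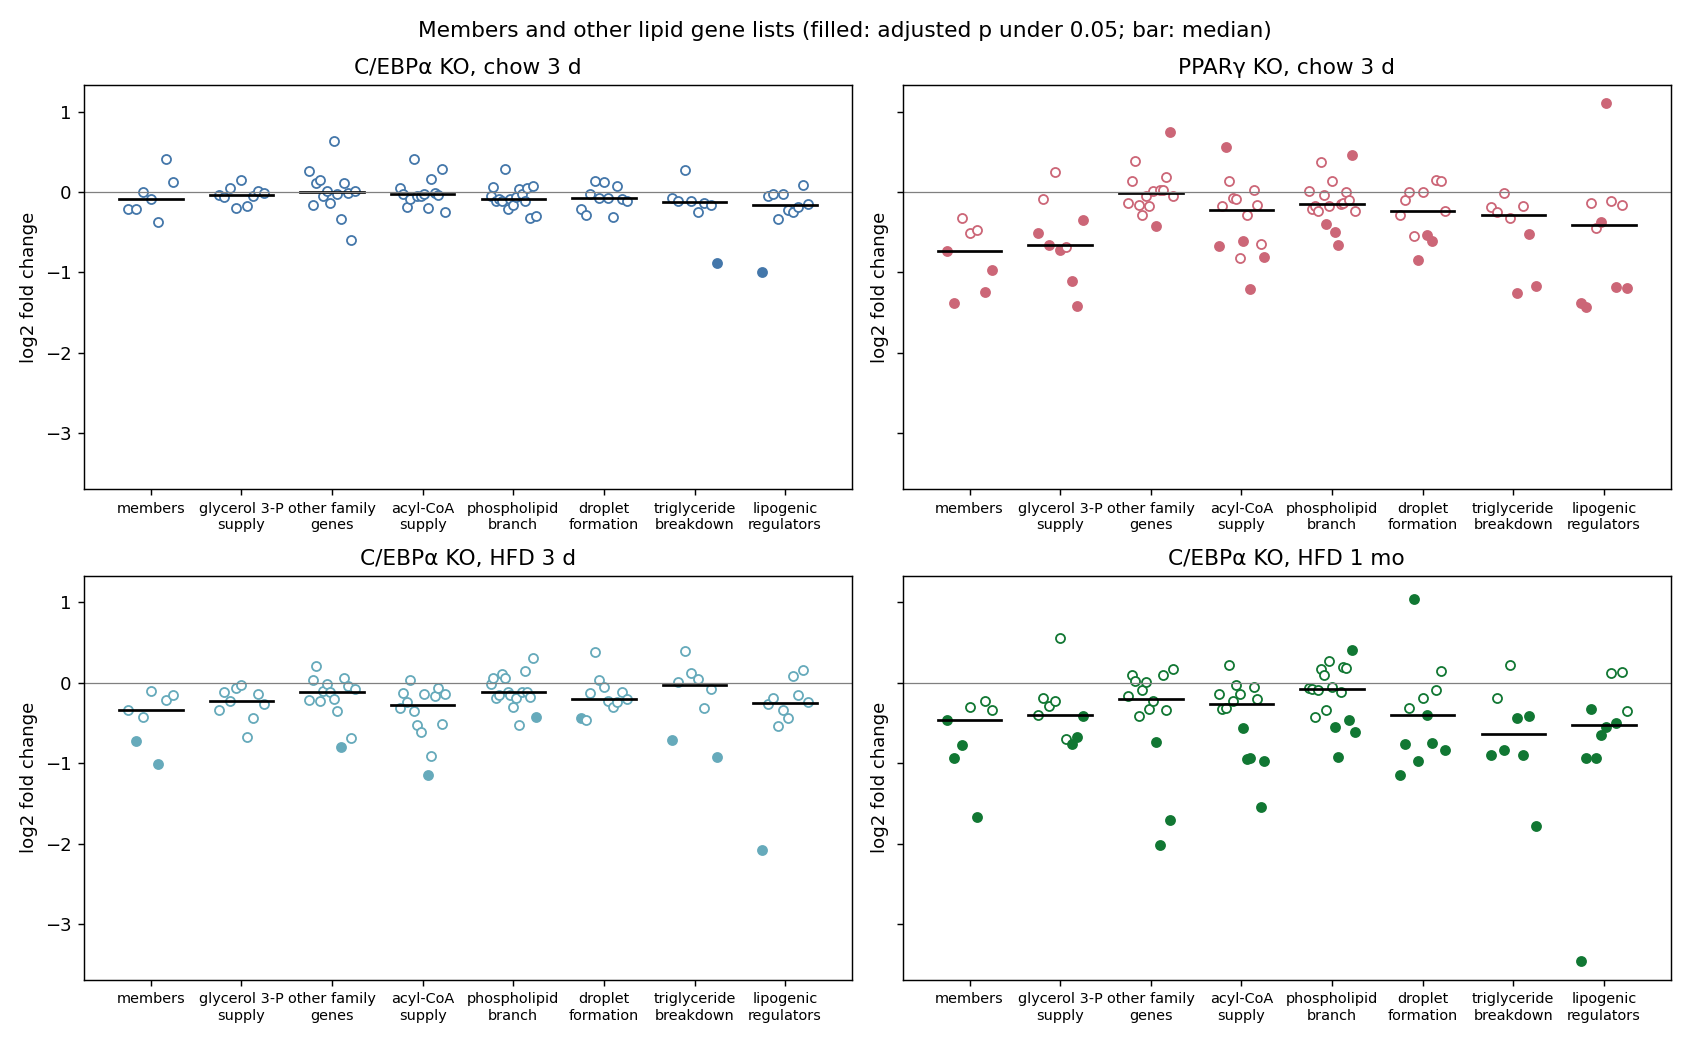
Log2 fold change of each tested gene of the 7 members and of the 7 other lipid gene lists, 1 panel per comparison; filled points have an adjusted p under 0.05 and black bars are medians. The members lie at a median of -0.74 in the PPARγ knockout beside -0.65 for glycerol 3-phosphate supply and -0.01 for the other family genes, and near 0 in the C/EBPα knockout on chow.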

How the data were processed

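Per the labels' protocols, total RNA was turned into biotin-labelled cRNA for Illumina arrays. The deposited series table holds 1 linear intensity per probe and array, normalized by the authors. The sources used here do not give the scanner software, background step or normalization method. Within each of 4 sets of 6 arrays the sorted intensities differed by at most 0.705 units, and the sets differed from each other, so levels were compared only within a set. A second deposited table was not used, because the names of its 96 per-array columns match no sample's labels. Groups were taken from the sample titles, since the genotype characteristic reads the same for a knockout and its controls.

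The background of each set (103 to 130 units at its peak, against median intensities of 110 to 151) was corrected with the normexp model, 16 was added and log2 was taken. Corrected intensities in the text are these values without the 16. Probes above background (5% false positives) on at least 3 of 24 arrays were kept, 32981 of 45281. The platform annotation gave 1 symbol to 34885 probes, several to 18 and none to 10378, and 34807 were found in RefSeq by Entrez identifier. Of the tested probes, those with 1 symbol covered 15526 genes. The test was limma's (version 3.58.1, R version 4.3.3), with lmFit on 8 group means (eBayes, two-sided, Benjamini-Hochberg over all tested probes, threshold 0.05), for 4 knockout comparisons and 4 differences between them.

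The 7 genes, the pathway and marker lists and the tests were chosen with earlier results of these data known. The text names all member probes, Cebpa and Pparg, up to 4 called genes per list and comparison with the smallest adjusted p, and the 5 genes most like the members' mean, with a few more whose values are given. Gk and Acsl1 were not found under those names, and Mogat1, Dgat2l6, Awat1, Acaca and Aadac were too dim to test. Same-numbered samples of a knockout and its controls did not deviate together (correlations of -0.21 to 0.06), so the numbers were not taken as pairs. Alternatives covered the background step, offset, filter, probe per gene, arrays in the fit, quantile normalization over 24 arrays, weights, threshold, replicate block and each array left out.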

Additional observations from a re-analysis of the deposited data

Results flagged for a closer look

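For 5 enzymes and pairs of comparisons, the effect of one knockout differed from that of the other by a test of the difference itself (limma, adjusted p under 0.05). On chow for 3 days, the PPARγ effect minus the C/EBPα effect was -1.66 for Gpd1, where PPARγ knockout arrays lay below their controls and C/EBPα knockout arrays above theirs. The Gpd1 rise in the C/EBPα knockout was itself not called (limma adjusted p = 0.25), and 9.42% of all genes lay wholly above their controls in that set. The difference of effects was -1.17 for Dgat1 and -1.09 for Lpin1. The PPARγ effect on chow minus the C/EBPα effect at 1 month of HFD was -1.02 for Gpd1 and 1.20 for Gpat3, 2 members with opposite signs. In the last pair of comparisons diet, time and age differ along with the factor and cannot be told apart from it.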

How the results depend on the processing

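The 10 calls in the 4 knockout comparisons (Gpd1, Agpat2, Lpin1 and Dgat1 in PPARγ, Gpat3 and Dgat1 at 3 days of HFD, and Gpat3, Agpat2, Dgat1 and Dgat2 at 1 month) held when any array of their set was left out. The 4 members called lower in the PPARγ knockout became 7 with no background correction, with an offset of 50 and with precision weights per set, and 6, 6 and 5 with 1 probe per gene, only the arrays of the comparison and the 6-array filter. The single member called lower in the PPARγ minus 1 month HFD difference (Gpd1) became 0 when only the arrays of the comparison were fitted (adjusted p = 0.066) and with any 1 of 5 arrays left out. Leaving out arrays gave 0 to 1 there, 1 to 1 called higher, 2 to 3 called lower at 3 days of HFD, 4 to 4 in PPARγ and at 1 month, and 3 to 4 in the PPARγ minus C/EBPα difference on chow. A replicate block, for numbers that do not pair the samples, took the Lpin1 call from that difference (-1.09, adjusted p = 0.0716) and left every other count of called members as it was. Signs turned only for differences that were never called: Dgat2 on chow in the C/EBPα knockout became -0.00474 with quantile normalization over 24 arrays and ran from -0.0861 to 0.0517 with arrays left out. With arrays left out, Gpam ran from -0.305 to 0.0702 and Lpin1 from -0.00647 to 0.218 on chow, and Gpd1 from -0.416 to 0.0285 at 1 month of HFD. The last of these was -0.23 with all arrays and turned positive only without knockout 2. For the differences, Gpat3 (PPARγ minus C/EBPα) ran from -0.246 to 0.0757, Gpam (3 days of HFD minus chow) from -0.167 to 0.208, and Gpd1 (1 month minus 3 days) from -0.204 to 0.241. The causes were not tested. Over all probes, the count called in the C/EBPα knockout on chow (272) moved widely: 463 with no background correction, 690 with an offset of 50, 66 with quantile normalization over 24 arrays, 415 with no filter, 174 with the 6-array filter, 161 with 1 probe per gene, 28 with precision weights, 60 with the replicate block and 1 with only the arrays of the comparison. With only its own arrays fitted, the 3 day HFD count went from 392 to 83, the PPARγ minus C/EBPα difference from 572 to 199 and the 1 month minus 3 days difference from 318 to 161. With the replicate block these became 253, 265 and 187. The PPARγ minus C/EBPα difference gave 270 with precision weights, 932 with no background correction and 938 with the offset of 50, and the 1 month minus 3 days difference gave 560 and 500 under the last 2. At 1 month of HFD, 1 probe per gene gave 2581 against 3880 probes. The 3 days minus chow difference gave 8 against 0 with no background correction. At an adjusted p under 0.01, the 4 knockout comparisons gave 50, 860, 186 and 2308 probes (chow, PPARγ, 3 days and 1 month), and the differences gave 131 (PPARγ minus C/EBPα), 94 (1 month minus 3 days) and 450 (PPARγ minus 1 month, 908 at the main threshold). Gpam read 134 to 262 units after correction for a background of 103 to 130 units.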
